A study of Homo sapiens with 28 samples.

Results

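The 5 genes described here, CA2, CA9, CA12, SLC4A2 and SLC4A7, encode carbonic anhydrases and bicarbonate transporters, and were taken by symbol from 19662 gene symbols in the RNA-Seq tables of PC3 and LNCaP prostate cancer cells. PC3, a prostate cancer line that the study calls neuroendocrine-like, received control siRNA (siCtrl) or siRNA silencing ONECUT2 (siOC2). LNCaP, a line of luminal adenocarcinoma type, carried either an empty vector or a vector for Flag-tagged ONECUT2 (Flag-OC2). Each of these was profiled in normoxia and in hypoxia at 0.2% oxygen, which gave 4 groups of 2 libraries in each cell line and 16 libraries in all. In the siOC2 groups replicate 1 is siRNA1 and replicate 2 is siRNA2, so the spread within these groups includes the difference between the siRNAs. The labels name no clone, no culture and no time in hypoxia, and p-values therefore measure only the spread between libraries, which may be technical.

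Carbonic anhydrases interconvert carbon dioxide and bicarbonate with release or uptake of a proton. CA9 and CA12 are membrane enzymes whose catalytic domain faces the outside of the cell, and CA2 is a cytosolic enzyme. SLC4A2 (anion exchanger AE2) exports bicarbonate in exchange for chloride, whereas SLC4A7 (NBCn1) imports bicarbonate together with sodium. CA9 is a classical target of the hypoxia-inducible factors and a widely used marker of tumor hypoxia, and ONECUT2 is a homeodomain transcription factor that the study linked to neuroendocrine prostate cancer.

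Expression is given as RPKM, reads scaled to the length of the gene and to the mapped reads of the library, as the authors computed it. The test was limma on log2(RPKM + 0.1), run within each line over the genes that reached 1 RPKM in 2 or more libraries, which left 12214 genes and 5 members in PC3, and 12283 genes and 4 members in LNCaP, where CA2 was below this limit. A call requires both a change of more than 2-fold and P below 0.05 before adjustment, and the limma p printed beside each value is adjusted over all genes tested (Benjamini-Hochberg). The added 0.1 understates the change of genes with low values. The tables of the lines were not tested against each other, and in bulk RNA fewer cells with a transcript cannot be told apart from less transcript per cell.

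The promoters of the membrane enzymes are shown because CA9 was called for hypoxia in every arm and CA12 for ONECUT2 silencing in PC3 cells. Both windows are RefSeq promoter sequences of a GRCh38.p14 table, from 250 bases before to 50 after the gene start, and each was found once, without a mismatch, in GRCh37. The CA9 window is chr9:35673675-35673974 on the plus strand and the CA12 window is chr15:63673996-63674295 on the minus strand. Capitals mark the core letters of the hypoxia response element, ACGTG or GCGTG, which were searched on both strands and lie here on the strand opposite to the gene, so that they read CACGT or CACGC.
CA9: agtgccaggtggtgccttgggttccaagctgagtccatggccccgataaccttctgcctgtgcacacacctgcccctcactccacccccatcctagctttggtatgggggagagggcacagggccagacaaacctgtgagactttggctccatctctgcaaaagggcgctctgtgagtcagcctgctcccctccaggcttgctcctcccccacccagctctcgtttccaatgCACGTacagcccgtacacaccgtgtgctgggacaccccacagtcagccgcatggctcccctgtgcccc
CA12: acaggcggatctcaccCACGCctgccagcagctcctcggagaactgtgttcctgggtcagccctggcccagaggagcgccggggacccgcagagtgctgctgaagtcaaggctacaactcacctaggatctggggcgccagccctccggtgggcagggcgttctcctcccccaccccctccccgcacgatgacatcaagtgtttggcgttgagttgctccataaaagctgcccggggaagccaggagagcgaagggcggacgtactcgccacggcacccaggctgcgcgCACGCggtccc
The CA9 window held 1 ACGTG, at -18 to -14 from the gene start, and the CA12 window held 2 GCGTG, at -234 to -230 and at 40 to 44. Among 35116 RefSeq promoter windows of this length, 21.4% held ACGTG, 36.5% held GCGTG and 48.4% held at least 1 of them. All 4 SLC4A2 windows and 1 of 2 SLC4A7 windows also held such a match, so the letters also stood in windows of members not called for hypoxia. ATCAAT or ATCGAT, cores of the ONECUT motif, stood in 6.96% of all windows and in no window of CA9, CA12, SLC4A2 or SLC4A7. These matches are letters in a window, not binding sites. CA2 had no entry.

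ONECUT2, the targeted gene, was at 1.77 and 1.16 RPKM in normoxic siCtrl cells and at 0.276 and 0.204 RPKM in normoxic siOC2 cells, a log2 fold change of 2.18 (SE 0.65, limma adjusted p = 0.332), which was called. In hypoxia it was at 0.648 and 0.550 RPKM with siCtrl and at 0.125 and 0.214 RPKM with siOC2, a log2 difference of 1.39 (SE 0.65, limma adjusted p = 0.439) that did not pass the test. At each oxygen level both siOC2 values lay below both siCtrl values, at low levels throughout, an order found in 15% of all genes tested in normoxia and in 19.6% in hypoxia. In empty vector LNCaP cells ONECUT2 varied from 2.89 to 11.5 RPKM, and its values in the Flag-OC2 libraries were not analysed here, so overexpression could not be checked from the table.

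The lines carried the markers of their type by KLK3 and by VIM, CD44 and CAV1. Neuroendocrine genes other than ENO2 were low in both lines. KLK3, which encodes the luminal marker prostate-specific antigen, was at 1842 to 3997 RPKM in LNCaP libraries and was listed at 0 in all 8 PC3 libraries, and the summed level of VIM, CD44 and CAV1 was 290 to 1120 RPKM in PC3 and 23.9 to 58.7 RPKM in LNCaP. Of 4 neuroendocrine genes, CHGA and INSM1 stayed at or below 0.284 RPKM in every library and SYP at or below 1.77 RPKM. ENO2, which also encodes an enzyme of glycolysis, was at 5.16 to 39.7 RPKM in normoxic and 57.8 to 113 RPKM in hypoxic libraries, and was called higher in hypoxia in all 4 arms (log2 1.63 to 3.10). Summed leukocyte markers (PTPRC, CD3E, LYZ) did not exceed 0.618 RPKM. Read counts were not used here, so absolute depth is unknown, but steps between low RPKM gave relative depths of 0.303 to 1 in PC3 and 0.548 to 1 in LNCaP. The shallowest PC3 libraries were hypoxic siOC2 replicate 1, hypoxic siCtrl replicate 2 and normoxic siCtrl replicate 1. Of 10 well-known hypoxia-inducible genes, 10 of 10 tested were higher in hypoxia in each PC3 arm. In each arm 9 of the 10 were called, beside 3.86% (siCtrl) and 3.46% (siOC2) of all genes. A limma adjusted p under 0.05 was found for 3 of the 10 with siCtrl and 0 with siOC2. In each LNCaP arm 8 of 8 tested were called higher, beside 7.95% (empty vector) and 6.84% (Flag-OC2) of all genes. The hypoxic libraries thus matched their labels.

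**Figure D1:**
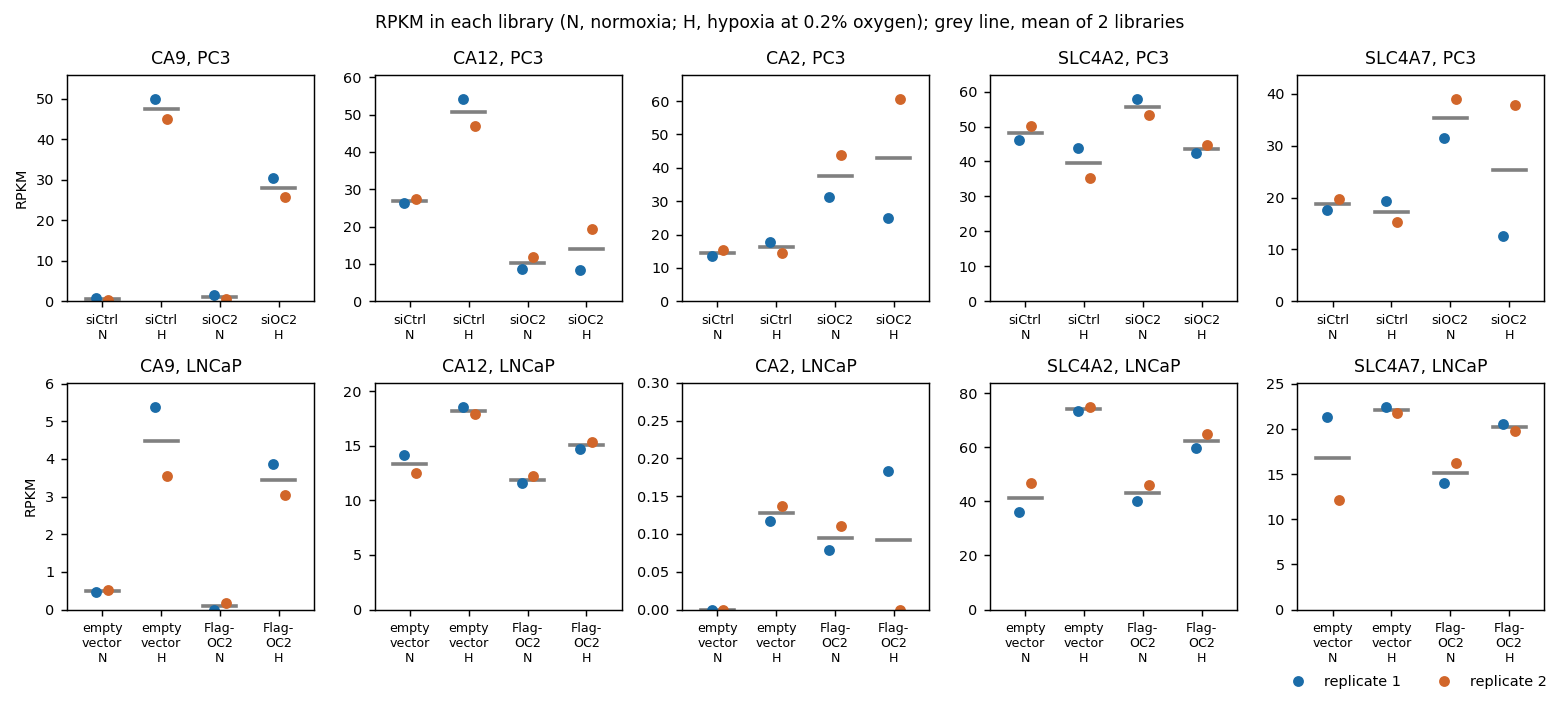
RPKM (linear axes from 0) of the 5 genes in each library of PC3 (top) and LNCaP (bottom), with grey lines for the means of 2 libraries. CA9 was under 2 RPKM in every normoxic library and reached 45.1 to 50.01 RPKM in hypoxic siCtrl PC3 cells, whereas CA12 and CA2 in PC3 separated by siRNA at both oxygen levels.

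CA9 was the member called higher in hypoxia, in both lines and in both arms of each. In siCtrl PC3 cells it went from 0.938 and 0.386 RPKM in normoxia to 50.01 and 45.1 RPKM in hypoxia, and in siOC2 cells from 1.54 and 0.448 to 30.4 and 25.8 RPKM. The hypoxic libraries lay far above all normoxic ones, where 22.1% of all genes had both hypoxic values above both normoxic ones with siCtrl and 7.34% with siOC2. The siOC2 pair in hypoxia lay below the siCtrl pair without overlap, as for 19.6% of genes. The fold change was 67.0 with siCtrl (log2 6.07, SE 0.54, limma adjusted p = 0.00515), the 4th highest of 12214 genes. With siOC2 it was 29.7 (log2 4.89, SE 0.54, limma adjusted p = 0.0599), the 7th highest. By siRNA, the log2 rise was 4.22 with siRNA1 and 5.56 with siRNA2.

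In siCtrl PC3 cells CA9 was 1 of 5 members called for hypoxia, beside 3.86% of all genes tested, and with siOC2 it was again 1 of 5, beside 3.46%. Neither the level in hypoxia nor the induction itself passed the test for a dependence on ONECUT2. In hypoxia siCtrl over siOC2 was 0.76 on the log2 scale (95% interval -0.49 to 2.01, limma adjusted p = 0.630). In normoxia, where all 4 values were under 2 RPKM, it was -0.41 (95% interval -1.66 to 0.83), and it was 0.37 without siOC2 replicate 1, 0.13 without siCtrl replicate 2 and -1.20, a call, without siOC2 replicate 2. The difference between the inductions was 1.17 on the log2 scale (SE 0.77, 95% interval -0.59 to 2.94, limma adjusted p = 0.9998). A term for the siRNA, added after the data were seen, gave the same difference with a limma adjusted p of 0.996, and there it passed the limits for a call. Without this term 0 of 5 members were called for the interaction, beside 0.942% of all genes.

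In LNCaP cells CA9 rose from under 1 RPKM to a few RPKM. With the empty vector it was at 0.473 and 0.531 RPKM in normoxia and at 5.38 and 3.56 RPKM in hypoxia. With Flag-OC2 it was listed at 0 and 0.171 RPKM in normoxia and was at 3.85 and 3.05 RPKM in hypoxia. Hypoxic values lay above normoxic ones in both arms, as for 37.1% of genes with the empty vector and 42% with Flag-OC2, while the hypoxic values of the arms overlapped. The log2 fold changes were 2.90 with the empty vector (SE 0.44, limma adjusted p = 0.00234) and 4.42 with Flag-OC2 (SE 0.44, limma adjusted p = 0.000513), which placed CA9 82nd and 19th highest of 12283 genes. CA9 was the 1 of 4 members called in each arm, beside 7.95% of genes with the empty vector and 6.84% with Flag-OC2. In both lines CA9 reached 1 RPKM in 2 libraries only through the hypoxic groups, so its own rise admitted it to the test, and its counts and ranks do not stand apart from that limit. Without a limit on low values it was again called in each arm, with limma adjusted p of 0.125 (siCtrl), 0.207 (siOC2), 0.0299 (empty vector) and 0.0130 (Flag-OC2).

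The larger log2 change with Flag-OC2 lay on the normoxic side. Flag-OC2 over empty vector was -1.87 in normoxia (SE 0.44, limma adjusted p = 0.0506), which made CA9 1 of 4 members called where 3.29% of genes were, and -0.34 in hypoxia (95% interval -1.36 to 0.67), where 0 of 4 members were called beside 4.47% of genes. The interaction was 1.53 (SE 0.63, limma adjusted p = 0.272), again 1 of 4 members beside 3.7% of genes. Both calls rest on normoxic values of at most 0.531 RPKM, among them an exact 0, which in RPKM can be a failed estimate. With a pseudocount of 1 the interaction was 0.19 and the normoxic difference -0.47, and neither was called. With the 0 taken as missing the interaction was 0.81 (limma adjusted p = 0.375) and was not called. Leaving out 1 library at a time gave 0.81 to 2.25, and the call was lost without any 1 of 6 of the 8 libraries, all but hypoxic empty vector replicate 1 and normoxic Flag-OC2 replicate 2.

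CA9 spans chr9:35673925-35681156 in GRCh37 and overlaps ARHGEF39 on the opposite strand. The libraries were stranded, but whether the counting used the strand is not given in the sources used here. ARHGEF39 itself lay between 0.937 and 4.16 RPKM in PC3 and between 3.95 and 9.79 RPKM in LNCaP, and in PC3 its values in normoxia and hypoxia overlapped.

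**Figure D2:**
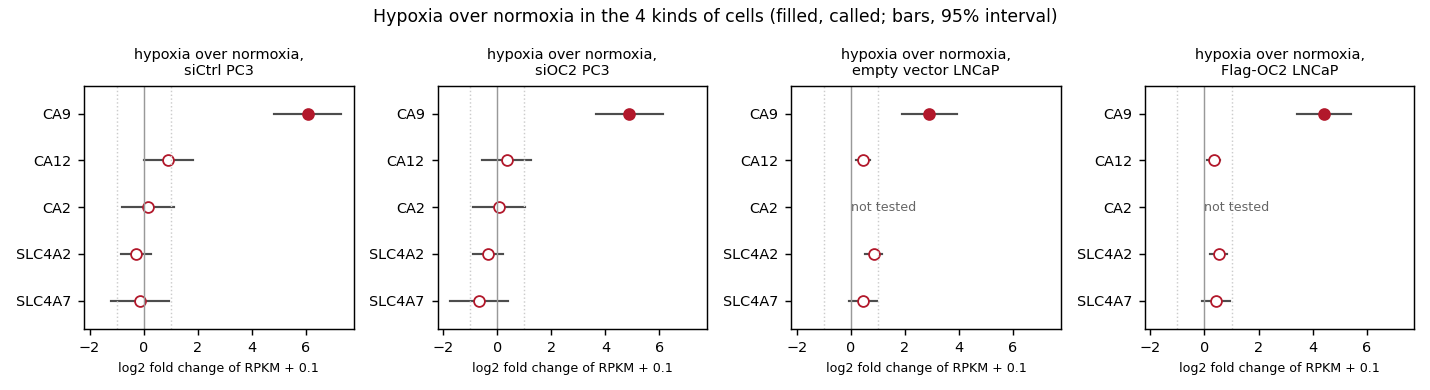
Log2 fold changes of hypoxia over normoxia on RPKM + 0.1 in the 4 kinds of cells, with 95% intervals from limma; filled points passed a fold change over 2 and P under 0.05, and dotted lines mark a 2-fold change. CA9 is the filled point in each panel, at 6.07, 4.89, 2.90 and 4.42, and the other members lie between -0.68 and 0.91.

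CA12, the other membrane enzyme, moved with ONECUT2 silencing in PC3 cells. It was at 26.3 and 27.5 RPKM in normoxic siCtrl cells and at 8.52 and 11.8 RPKM in normoxic siOC2 cells. In hypoxia it was at 54.2 and 47.0 RPKM with siCtrl and at 8.46 and 19.3 RPKM with siOC2. Every siCtrl library was above every siOC2 library, whatever the oxygen level, where 15% of all genes had both siCtrl values above both siOC2 values in normoxia and 19.6% in hypoxia. CA12 was 2.66-fold higher with siCtrl in normoxia (log2 1.41, SE 0.39, limma adjusted p = 0.304) and 3.93-fold higher in hypoxia (log2 1.97, SE 0.39, limma adjusted p = 0.0973). Neither adjusted p passed 0.05 in this fit. The fit with a term for the siRNA gave limma adjusted p of 0.00426 and 0.000206. That term takes the difference between the siRNAs out of the spread, so these p-values do not measure how far the siRNAs differ. The siRNAs agreed in direction, with log2 differences of 1.65 (siRNA1) and 1.18 (siRNA2) in normoxia and of 2.56 and 1.38 in hypoxia.

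The hypoxia response of CA12 was small beside that of CA9. In siCtrl PC3 cells the fold change was 1.87 (log2 0.91, 95% interval 0.0035 to 1.81, limma adjusted p = 0.674), under the fold limit of 2. With siOC2 the log2 change was 0.35 (95% interval -0.56 to 1.25), made up of -0.01 with siRNA1 and 0.70 with siRNA2. The difference between the arms, 0.56 (95% interval -0.72 to 1.84, limma adjusted p = 0.9998), did not pass the test. Without hypoxic siOC2 replicate 2 it was 1.15, a call (limma adjusted p = 0.2498), and without hypoxic siOC2 replicate 1 it was -0.03, so the remaining siRNA library decided the value.

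CA12 in LNCaP cells stayed within a narrow range, from 11.5 RPKM to 18.5 RPKM over the 8 libraries. It was at 14.2 and 12.5 RPKM (empty vector) and 11.5 and 12.3 RPKM (Flag-OC2) in normoxia, and at 18.5 and 17.9 RPKM and 14.7 and 15.4 RPKM in hypoxia. Within each arm the hypoxic values were above the normoxic ones, an order shared by 37.1% of genes (empty vector) and 42% (Flag-OC2). The log2 differences of hypoxia over normoxia were 0.45 with the empty vector (SE 0.11, limma adjusted p = 0.0168) and 0.34 with Flag-OC2 (SE 0.11, limma adjusted p = 0.0549), both under the fold limit. Flag-OC2 over empty vector was -0.16 in normoxia (95% interval -0.41 to 0.10) and -0.27 in hypoxia (95% interval -0.53 to -0.02, limma adjusted p = 0.152). CA12 spans chr15:63613577-63674045 and overlaps no other annotated gene.

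CA2, the cytosolic enzyme, moved opposite to CA12 in PC3 cells. It was at 13.7 and 15.3 RPKM in normoxic siCtrl cells and at 31.3 and 43.9 RPKM in normoxic siOC2 cells. In hypoxia it was at 17.9 and 14.6 RPKM with siCtrl and at 25.05 and 60.7 RPKM with siOC2. All siOC2 libraries were above all siCtrl libraries, with a wide gap between the siRNAs in hypoxia, and the reverse order of pairs was found in 31.4% of all genes in normoxia and in 18.8% in hypoxia. CA2 was 2.55-fold lower with siCtrl than with siOC2 in normoxia (log2 -1.35, SE 0.42, limma adjusted p = 0.348) and 2.41-fold lower in hypoxia (log2 -1.27, SE 0.42, limma adjusted p = 0.269). The fit with a term for the siRNA gave limma adjusted p of 0.00646 and 0.00602, which again leave the difference between the siRNAs out of the spread. The call in hypoxia leaned on siRNA2: the log2 difference was -0.63 with siRNA1 and -1.90 with siRNA2, and without hypoxic siOC2 replicate 2 (siRNA2) or without hypoxic siCtrl replicate 2 (-1.12) it was not called. In normoxia the call was also lost without siCtrl replicate 1 (-1.27) and without siOC2 replicate 2 (-1.11).

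With CA12 higher and CA2 lower, 2 of 5 members were called for siCtrl over siOC2 in normoxia, beside 5.21% of all genes, and the same 2 of 5 in hypoxia, beside 7.5%. These contrasts share no library, but they come from 1 fit and the same siRNAs were used in both, so they are not independent. CA2 was not called for hypoxia in either arm, with log2 changes of 0.16 with siCtrl (95% interval -0.80 to 1.11) and 0.07 with siOC2 (95% interval -0.88 to 1.03). In LNCaP cells CA2 was nearly absent, listed at 0 in 3 of 8 libraries and at 0.0792 to 0.183 RPKM in the other 5, so no comparison was made. CA2 lies on chromosome 8 and overlaps the antisense RNA CA3-AS1.

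VIM and CD44, genes of the PC3 marker list, moved with the siRNA as well. VIM was at 353 and 328 RPKM in hypoxic siCtrl libraries and at 30.2 and 165 RPKM in hypoxic siOC2 libraries, a log2 fold change of 2.26 (SE 0.69, limma adjusted p = 0.238), and CD44 differed by 1.03 (SE 0.44, limma adjusted p = 0.409). In normoxia 0 of 3 genes of that list were called, and all 3 were higher in siCtrl. The part of these genes in the CA12 and CA2 results was not tested.

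**Figure D3:**
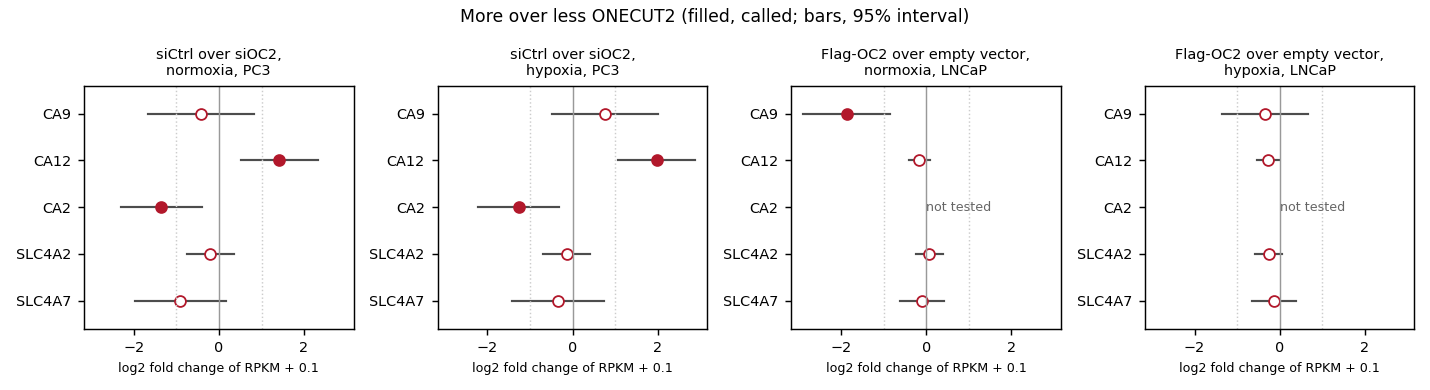
Log2 fold changes of the cells with more over the cells with less ONECUT2 (siCtrl over siOC2 in PC3, Flag-OC2 over empty vector in LNCaP), with 95% intervals from limma and filled points for calls. In PC3 CA12 lies at 1.41 and 1.97 and CA2 at -1.35 and -1.27, while in LNCaP the filled point is CA9 in normoxia at -1.87.

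The makeup of carbonic anhydrase transcripts in PC3 cells changed accordingly. RPKM is per length, so levels can be set side by side, and the ratio of genes within a library does not depend on how that library was scaled. CA2 was 0.310 to 0.558 times CA12 in the 4 siCtrl libraries and 2.96 to 3.72 times CA12 in the 4 siOC2 libraries, in normoxia and hypoxia alike. Of the summed RPKM of 12 catalytic carbonic anhydrases, CA12 held 53.7% and 50.7% in normoxic siCtrl libraries and 15.7% and 16.8% in normoxic siOC2 libraries, while CA2 held 27.9% and 28.3% against 57.7% and 62.4%. Hypoxia brought the share of CA9 from 1.92% and 0.712% to 37.1% and 38.4% with siCtrl, and from 2.83% and 0.636% to 37.2% and 21.3% with siOC2. The leading enzyme in normoxia was thus CA12 with siCtrl and CA2 with siOC2, and in hypoxic siCtrl cells CA12 and CA9 stood close together, CA9 at 0.922 and 0.958 times CA12. These shares are descriptions and carry no test.

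In LNCaP cells CA12 led in all 8 libraries, with 47.6% to 62.8% of the summed RPKM. CA9 held 2.096% and 2.63% with the empty vector and 0% and 0.730% with Flag-OC2 in normoxia, and 9.46% to 14.4% in the 4 hypoxic libraries. CA9 remained below CA12 in each hypoxic LNCaP library, at 0.199 to 0.290 times its level.

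**Figure D4:**
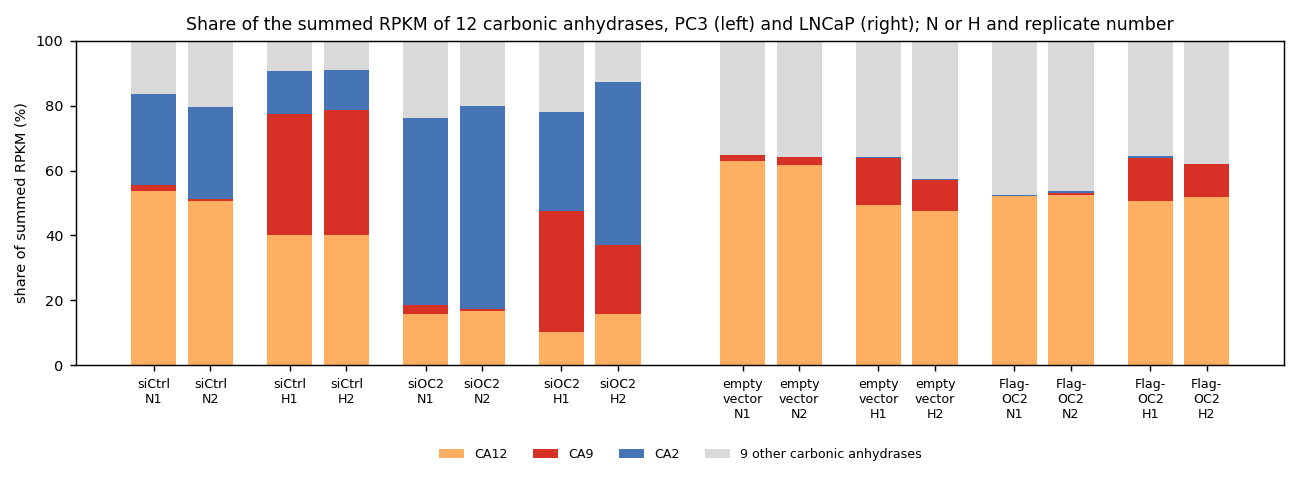
Share (percent) of CA12, CA9, CA2 and 9 other carbonic anhydrases in their summed RPKM, 1 stacked bar per library. CA12 holds 50.7% and 53.7% in normoxic siCtrl PC3 libraries and 15.7% and 16.8% in normoxic siOC2 ones, and CA9 appears in hypoxia.

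SLC4A2, the chloride-bicarbonate exchanger, was the steadiest member in PC3 cells. It was at 46.1 and 50.1 RPKM (siCtrl) and 57.9 and 53.2 RPKM (siOC2) in normoxia, and at 43.96 and 35.2 RPKM and 42.3 and 44.6 RPKM in hypoxia. Each normoxic library was above each hypoxic one, by little, and this order within an arm was that of 32.9% of genes with siCtrl and 20.9% with siOC2. No contrast passed the test, with log2 changes in hypoxia of -0.29 (95% interval -0.84 to 0.27) with siCtrl and -0.35 (95% interval -0.91 to 0.20) with siOC2. For siCtrl over siOC2 they were -0.21 (95% interval -0.76 to 0.35) in normoxia and -0.14 (95% interval -0.70 to 0.41) in hypoxia.

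In LNCaP cells SLC4A2 was higher in hypoxia. It was at 36.0 and 46.9 RPKM with the empty vector and 40.2 and 46.2 RPKM with Flag-OC2 in normoxia, and at 73.4 and 74.9 RPKM and 59.6 and 64.9 RPKM in hypoxia. All hypoxic values exceeded all normoxic ones, as they did for 37.1% of genes within the empty vector arm and 42% within the Flag-OC2 arm, and in hypoxia the Flag-OC2 pair lay below the empty vector pair, as for 34.8% of genes. The fold changes were 1.80 with the empty vector (log2 0.85, SE 0.14, limma adjusted p = 0.00305) and 1.44 with Flag-OC2 (log2 0.53, SE 0.14, limma adjusted p = 0.0255), so the adjusted p passed 0.05 while the fold limit of 2 was not reached. An adjusted p under 0.05 with a higher level in hypoxia, at any fold, was found in 18.2% of genes with the empty vector and in 18.4% with Flag-OC2. The difference between the arms was -0.32 (95% interval -0.77 to 0.13, limma adjusted p = 0.446). Without normoxic empty vector replicate 2 the log2 change was 1.04 and SLC4A2 was called. Flag-OC2 over empty vector was 0.07 in normoxia and -0.25 in hypoxia (95% interval -0.57 to 0.06). SLC4A2 spans chr7:150754297-150773613 and overlaps CDK5 and a long noncoding RNA on the opposite strand. It also overlaps an unnamed protein-coding gene on the same strand. CDK5 lay between 18.03 and 28.1 RPKM in LNCaP, with overlapping values in normoxia and hypoxia. In PC3 CDK5 was lower in hypoxia within each arm without overlap, the same order as SLC4A2 there. With siCtrl CDK5 went from 19.46 and 22.05 to 17.02 and 14.04 RPKM. With siOC2 it went from 26.39 and 25.07 to 22.58 and 20.56 RPKM. Whether reads of CDK5 or of the other overlapping genes entered the SLC4A2 values was not tested.

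SLC4A7, the sodium-bicarbonate cotransporter, was not called in any contrast. In PC3 it was at 17.7 and 19.7 RPKM (siCtrl) and 31.5 and 39.1 RPKM (siOC2) in normoxia, and at 19.4 and 15.2 RPKM and 12.6 and 38.0 RPKM in hypoxia. The normoxic siOC2 pair lay above the siCtrl pair, as for 31.4% of genes, and in hypoxia the siRNAs fell on either side of it. Its log2 change of siCtrl over siOC2 was -0.91 in normoxia (SE 0.47, 95% interval -1.98 to 0.17, limma adjusted p = 0.613) and -0.35 in hypoxia (95% interval -1.42 to 0.73). The hypoxic value was 0.45 with siRNA1 and -1.14 with siRNA2, of opposite sign. Hypoxia over normoxia was -0.12 with siCtrl (95% interval -1.20 to 0.95) and -0.68 with siOC2 (95% interval -1.76 to 0.40). Leaving out hypoxic siOC2 replicate 2 turned the last value to -1.47, a call, and leaving out hypoxic siOC2 replicate 1 turned it to 0.11.

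In LNCaP SLC4A7 was at 21.4 and 12.2 RPKM with the empty vector and 14.0 and 16.3 RPKM with Flag-OC2 in normoxia, and at 22.4 and 21.7 RPKM and 20.5 and 19.8 RPKM in hypoxia. The normoxic empty vector libraries were far apart, and within each arm both hypoxic values lay above both normoxic ones, as for 37.1% of genes (empty vector) and 42% (Flag-OC2). Hypoxia over normoxia was 0.45 with the empty vector (95% interval -0.07 to 0.97) and 0.41 with Flag-OC2 (95% interval -0.10 to 0.93), and neither passed the test in limma. SLC4A7 spans chr3:27414212-27525911 on the minus strand. It overlaps RN7SL859P on the same strand, and a long noncoding RNA and the pseudogene RPS20P15 on the opposite strand.

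Marker genes of other cells moved with the LNCaP contrasts too. The hemoglobin gene HBA1 was at 1.92 to 3.54 RPKM in the 4 Flag-OC2 libraries and at 0.0538 to 0.286 RPKM in the 4 empty vector libraries, whereas the other hemoglobin gene read, HBB, did not exceed 0.249 RPKM in any library. COL1A1 rose with hypoxia, from 7.57 and 7.72 to 15.7 and 17.5 RPKM with the empty vector, while COL1A2 did not exceed 0.00628 RPKM in any library, and the 4 fibroblast markers summed to 7.998 to 26.3 RPKM in LNCaP and 2.06 to 6.80 RPKM in PC3. Their part in the results of CA9, CA12 and SLC4A2 was not tested.

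HIF1A and EPAS1, which encode subunits of the hypoxia-inducible factors, differed in their response. HIF1A was at 365 and 480 RPKM in normoxic and 241 and 185 RPKM in hypoxic siCtrl PC3 cells, a log2 difference of -0.99 (SE 0.30, limma adjusted p = 0.428) just under the fold limit. In LNCaP cells its log2 differences in hypoxia were 0.13 with the empty vector and 0.03 with Flag-OC2. EPAS1, which encodes HIF2-alpha, rose by 1.40 on the log2 scale in empty vector LNCaP cells (SE 0.30, limma adjusted p = 0.0091) and by 1.02 in siCtrl PC3 cells (SE 0.40, limma adjusted p = 0.611), and was not called with Flag-OC2 (0.85) or with siOC2 (0.18).

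Among other genes of pH control, the response to hypoxia was scattered. The 69 genes read were 9 other carbonic anhydrases, 3 carbonic anhydrase-related genes, 8 other SLC4 transporters, 6 SLC26 anion exchangers, 9 sodium-proton exchangers, 6 monocarboxylate transporters and chaperones, 23 subunits of the proton-pumping V-ATPase and 5 proton sensors or channels. In siCtrl PC3 cells 2 of 6 sodium-proton exchangers tested fell, SLC9A2 (log2 -1.14, SE 0.33), from 2.95 and 3.20 to 1.36 and 1.32 RPKM, and SLC9A8 (log2 -1.01, SE 0.39), from 3.96 and 3.12 to 1.99 and 1.45 RPKM. Neither had a limma adjusted p under 0.05, and neither was called with siOC2. Of all genes tested, 3.86% were called for hypoxia with siCtrl, in either direction.

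In LNCaP cells SLC16A3 and SLC9A9 were called in both arms, beside 7.95% (empty vector) and 6.84% (Flag-OC2) of all genes. SLC16A3, the lactate-proton exporter MCT4, rose from 2.60 and 2.54 to 6.70 and 5.62 RPKM with the empty vector (log2 1.22, SE 0.16, limma adjusted p = 0.00127) and from 2.201 and 1.84 to 4.66 and 4.81 RPKM with Flag-OC2 (log2 1.19, SE 0.16, limma adjusted p = 0.00181), the 1 of 5 genes of its list called. SLC9A9, an endosomal exchanger, fell by 1.21 and by 1.35 on the log2 scale (SE 0.40 each), the 1 of 7 of its list called. These are low values: with the empty vector it was at 1.87 to 2.06 RPKM in normoxia and 0.786 to 0.802 RPKM in hypoxia. The hypoxic Flag-OC2 libraries were apart, at 0.287 and 0.741 RPKM. CA11, a carbonic anhydrase-related gene without catalytic activity, rose with the empty vector (log2 1.14, SE 0.30, limma adjusted p = 0.0224), from 3.27 and 7.20 to 11.7 and 9.96 RPKM.

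V-ATPase subunits did not pass the test for hypoxia, with 0 of 18 tested called in each PC3 arm and 0 of 20 in each LNCaP arm. Their median log2 changes were -0.08 and -0.16 in PC3, where the medians of all genes were -0.07 and -0.22. For siCtrl over siOC2, 15 of 18 subunits were negative in normoxia and 15 of 18 in hypoxia, with medians of -0.53 and -0.54 beside -0.13 and 0.03 over all genes, and again none was called. With upper-quartile scaling these counts were again 15 of 18 at both oxygen levels, with medians of -0.43 and -0.60, and ATP6V1B2 was called lower in hypoxia. In LNCaP the subunit ATP6V1C2 was higher with Flag-OC2, by 1.49 in normoxia and 1.96 in hypoxia on the log2 scale (SE 0.33 each, limma adjusted p = 0.0408 and 0.00982). It was the 1 of 20 subunits called, beside 3.29% (normoxia) and 4.47% (hypoxia) of all genes.

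Some other genes of these lists were called for siCtrl over siOC2 in PC3, beside 5.21% of all genes in normoxia and 7.5% in hypoxia. SLC16A7, a monocarboxylate importer (MCT2), was higher with siCtrl by 1.18 in normoxia and 1.59 in hypoxia (SE 0.39 each), 1 of 5 of its list. In hypoxia SLC4A11 (-2.11, SE 0.76) and SLC26A11 (-1.76, SE 0.37) were lower with siCtrl, 1 of 4 and 1 of 2 of their lists. None of these had a limma adjusted p under 0.05. CA13, a cytosolic carbonic anhydrase, was the 1 gene of the lists called for the interaction in LNCaP, beside 3.7% of all genes. In hypoxia it went from 3.75 and 3.07 to 5.30 and 7.60 RPKM with the empty vector. With Flag-OC2 it went from 4.22 and 4.90 to 3.48 and 3.19 RPKM, an interaction of -1.32 (SE 0.28, limma adjusted p = 0.098).

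The genes whose profiles were most like each member were read from the correlation of log2(RPKM + 0.1) over the 16 libraries. They were sought among 10947 genes tested in both lines. The mean of each gene over the 8 libraries of a line was first subtracted, so the level difference between the lines does not enter r. For CA9 these were FAM162A (r = 0.97), CCNG2 (r = 0.962) and LOX (r = 0.962). For CA12 they were NOX5 (r = 0.964), EPB41L4B (r = 0.955) and TMEM64 (r = 0.952). SLC4A2 was most like ZNF865 (r = 0.94), and SLC4A7 most like ZNF398 (r = 0.95). CA2, read over the 8 PC3 libraries alone, was most like TMEM33 (r = 0.995). The libraries share cell line, treatment and depth, so these values are descriptions. By Spearman's rho 1 of the nearest 3 genes was again among the nearest 3 for CA9, CA12 and SLC4A7, and 0 of 3 for CA2 and SLC4A2. With a pseudocount of 1 it was 1 of 3 for CA9 (LOX), 2 of 3 for SLC4A7 and 3 of 3 for CA2, CA12 and SLC4A2. The genes named thus depend on the measure and, most of all for CA9, on the pseudocount.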

How the data were processed

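RNA-Seq was measured in 16 libraries, and groups were taken from the labels. The authors made TruSeq stranded mRNA libraries, used STAR 2.4.2a to align trimmed reads (hg19) and Cufflinks 2.1.1 with a GENCODE annotation of GRCh37 to obtain the deposited RPKM values. The series also has 12 ChIP-Seq samples, not analysed here. ONECUT2 values of the Flag-OC2 libraries were not used here. Results of some genes of the pathway and marker lists are not reported here.

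For each line limma 3.58.1 in R 4.3.3 was fitted to log2(RPKM + 0.1) with 4 groups, a mean-variance trend and no replicate block, and p-values are 2-sided. The hypoxia contrasts, the ONECUT2 contrasts and the interaction of a line share libraries, controls included. With 2 libraries against 2, an exact permutation test of 1 gene cannot go below 0.333 and was not used. The limma script was tested on simulated data. Relative depth came from the steps between low RPKM. RPKM that are exactly 0 are given per library.

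All members are named, with ONECUT2. Of the pathway genes, those called for hypoxia in both arms of a line were to be named by rule (SLC16A3 and SLC9A9), and the other genes of those lists, HIF1A, EPAS1, ARHGEF39 and CDK5 were chosen after their values were seen. The members and lists were chosen with earlier results of these data known. Gene positions are those of GENCODE v44 on GRCh37.

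Replicate numbers of siOC2 libraries name the siRNA, used at both oxygen levels. Over all genes tested, the deviations of libraries with equal numbers had r = 0.618 between the siOC2 groups, at -0.186 to 0.0759 between other PC3 groups and at -0.0648 to 0.275 in LNCaP, so only the siOC2 libraries were treated as paired, in a fit with a term for the siRNA that was added after the data were seen. Alternatives were upper-quartile (75%) scaling, a larger pseudocount (1), a minimum of 5 RPKM or none, the replicate block, a fit restricted to the contrasted groups, adjusted p for calls, exact 0 values as missing (also added), and leaving out each library.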

Additional observations from a re-analysis of the deposited data

Results flagged for a closer look

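The interaction of hypoxia and Flag-OC2 for CA9 in LNCaP cells was 1.53 on the log2 scale (SE 0.63) and met the limits for a call before adjustment, but not after it (limma adjusted p = 0.272). It rests on normoxic values under 1 RPKM. The call was lost with a pseudocount of 1 (0.19), with the exact 0 as missing (0.81), with the replicate block, without a limit on low values, and without any 1 of 6 of the 8 libraries.

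The log2 changes of CA12 with ONECUT2 had opposite signs in the lines. The log2 fold changes of more over less ONECUT2 were 1.41 in PC3 and -0.16 in LNCaP in normoxia, and 1.97 in PC3 and -0.27 in LNCaP in hypoxia, and the difference between the lines was not tested because their tables are separate. The LNCaP values were not called, and the 95% interval of the normoxic one (-0.41 to 0.10) included 0.

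The log2 changes of SLC4A2 with hypoxia had opposite signs in the lines. In the control cells the log2 fold changes were -0.29 in PC3 and 0.85 in LNCaP, and in the ONECUT2-perturbed cells they were -0.35 in PC3 and 0.53 in LNCaP. The difference was again not tested, and none of these values was called. In PC3 the 95% intervals of SLC4A2 included 0 in each arm. The medians of all genes were -0.07 (siCtrl), -0.22 (siOC2), 0.02 (empty vector) and 0.09 (Flag-OC2).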

How the results depend on the processing

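Counts of members called changed as follows in limma. With an adjusted p under 0.05 for a call, 0 members were called for hypoxia with siOC2, for siCtrl over siOC2 at either oxygen level, for Flag-OC2 in normoxia and for the LNCaP interaction. With a limit of 5 RPKM, at which CA9 was not tested in LNCaP, the count was 0 for both LNCaP hypoxia contrasts, Flag-OC2 in normoxia and the interaction. A pseudocount of 1 gave 0 for the latter pair, and no limit on low values or exact 0 values as missing gave 0 for the LNCaP interaction. Upper-quartile scaling changed no count of members, but turned the PC3 interactions of CA2 to -0.081 and of SLC4A2 to -0.10, neither called. It moved the median log2 change of all genes from -0.22 to -0.09 for hypoxia with siOC2 and from 0.17 to 0.0058 for the PC3 interaction, and the share of higher among called genes from 32.0% to 45.7% (hypoxia with siOC2), from 30.5% to 43.4% (siCtrl over siOC2 in normoxia) and from 73.9% to 49.6% (PC3 interaction).

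The replicate block changed 1 count of members, the LNCaP interaction (0 with the block), and the term for the siRNA changed 1, the PC3 interaction (1, CA9). In LNCaP and between the other PC3 groups the libraries share only a number.

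Leaving out 1 library at a time gave 1 to 2 members called for hypoxia with siOC2 (2 without hypoxic siOC2 replicate 2), 1 to 2 for the empty vector (2 without normoxic replicate 2), 1 to 2 for siCtrl over siOC2 in normoxia (1 without siCtrl replicate 1), 1 to 3 in hypoxia (1 without siCtrl replicate 2 or siOC2 replicate 2), 0 to 2 for the PC3 interaction (2 without hypoxic siOC2 replicate 2, and CA9, at 1.96, without normoxic siOC2 replicate 2) and 0 to 1 for the LNCaP interaction (0 without 6 of the 8 libraries). Log2 changes that turned sign were CA12 and CA2 for hypoxia with siOC2 (-0.24 to 0.94 and -0.56 to 0.71), the PC3 interactions of CA12 (-0.029 to 1.15), CA2 (-0.55 to 0.72), SLC4A2 (-0.094 to 0.22) and SLC4A7 (-0.23 to 1.35), and siCtrl over siOC2 for CA9 in normoxia (-1.20 to 0.37) and, in hypoxia, for SLC4A2 (-0.30 to 0.017) and SLC4A7 (-1.14 to 0.45). SLC4A7 also turned for hypoxia with siCtrl (-0.29 to 0.051) and siOC2 (-1.47 to 0.11), for Flag-OC2 in normoxia (-0.50 to 0.31) and for the LNCaP interaction (-0.44 to 0.37), and SLC4A2 for Flag-OC2 in normoxia (-0.12 to 0.26). None of these was called with all libraries. Where the cause of a change is not the setting itself, it was not tested. Groups of 2 libraries and unknown depth limit the precision, most of all for CA9 under 1 RPKM.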
